A study of Mus musculus with 6 samples.

Results

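The genes described here are 9 activity-induced effector genes, Arc, Homer1, Ptgs2, Gadd45b, Gadd45g, Btg2, Nptx2, Rheb and Plk2. They are genes that neurons switch on when they fire and whose products are not transcription factors. They were taken as every probe set whose platform annotation names 1 of these genes and no other, which gave 20 of 45037 probe sets. Of these, 17 reached a mean intensity of 50 in at least 1 group, among 19073 probe sets that did so, and each of the 9 genes kept at least 1, among 10830 genes. For each gene the probe set of highest mean over all arrays is given first.

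The RNA came from the cortex of mice of the Glt25d2 bacTRAP line DU9, backcrossed for 3 to 5 generations from FVB onto C57BL/6. In such mice a bacterial artificial chromosome carrying the Glt25d2 (Colgalt2) regulatory region drives a tagged ribosomal protein, here in pyramidal cells of layer 5, and pulling down the tag enriches for RNA on the ribosomes of those cells (translating ribosome affinity purification, TRAP). One group drank 0.167 mg/ml fluoxetine, a serotonin reuptake inhibitor used as an antidepressant, in 1% saccharine and the other 1% saccharine alone, for 15 to 18 days, with 3 arrays per group. Neither the age and sex of the mice nor the number of animals behind an array is given in the labels.

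Each sample's title, source and treatment fields name one treatment, and its description field names the other. The groups follow the titles and are called fluoxetine-titled and vehicle-titled. If the description were the correct one, all signs of the treatment differences would turn and all p-values would stay. Arrays with the same replicate number in their titles are called pair 1, 2 and 3. The median intensity per array was 23.03 to 23.45, and the small number of arrays limits the precision. The 7 markers of the labelled cells fixed for this comparison, among them Colgalt2, Fezf2, Bcl11b, Crym and Pcp4, all passed the filter, each with a mean of at least 842, and so did most markers of astrocytes, oligodendrocytes, interneurons and microglia. In such bulk RNA, fewer cells of a type and less RNA per cell cannot be told apart.

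Synaptic activity raises calcium in the neuron, and calcium-dependent kinases then act through factors already bound to DNA, such as CREB and SRF, so that a first wave of genes is transcribed within minutes to hours. The effector genes of that wave act at the synapse or on signalling directly. Arc, Homer1, Nptx2, Plk2 and Rheb adjust glutamate receptors, spines and local protein synthesis, Ptgs2 makes prostaglandins, and the Gadd45 and Btg2 proteins act in stress signalling, DNA repair and messenger RNA decay.

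The comparison asks how more than 2 weeks of fluoxetine alter the ribosome-bound messages of these genes in layer 5 pyramidal cells. Of the 9 genes, Gadd45g had fluoxetine-titled values that all lay above the vehicle-titled ones, by 1.27-fold, and Gadd45g and Btg2 were higher in the fluoxetine-titled array of every pair. Arc, Gadd45b and Plk2 had positive mean differences, and Homer1, Ptgs2, Nptx2 and Rheb negative ones, each with at least 1 pair of the other sign. No member passed an adjusted p of 0.05 in limma, nor did any of the 19073 probe sets (0%). At an unadjusted p under 0.05, 1 of the 9 genes, Gadd45g, was counted, against 0.634% of all probe sets. With the replicate number as a block the counts were 0 of 9 at the adjusted p and 2 of 9, Gadd45g and Btg2, at the unadjusted p, against 4.02% of all probe sets. Counted by probe set, 1 of the 17 kept was at such a p without the block and 3 with it, the third being Homer1 1425710_a_at, which was lower.

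**Figure D1:**
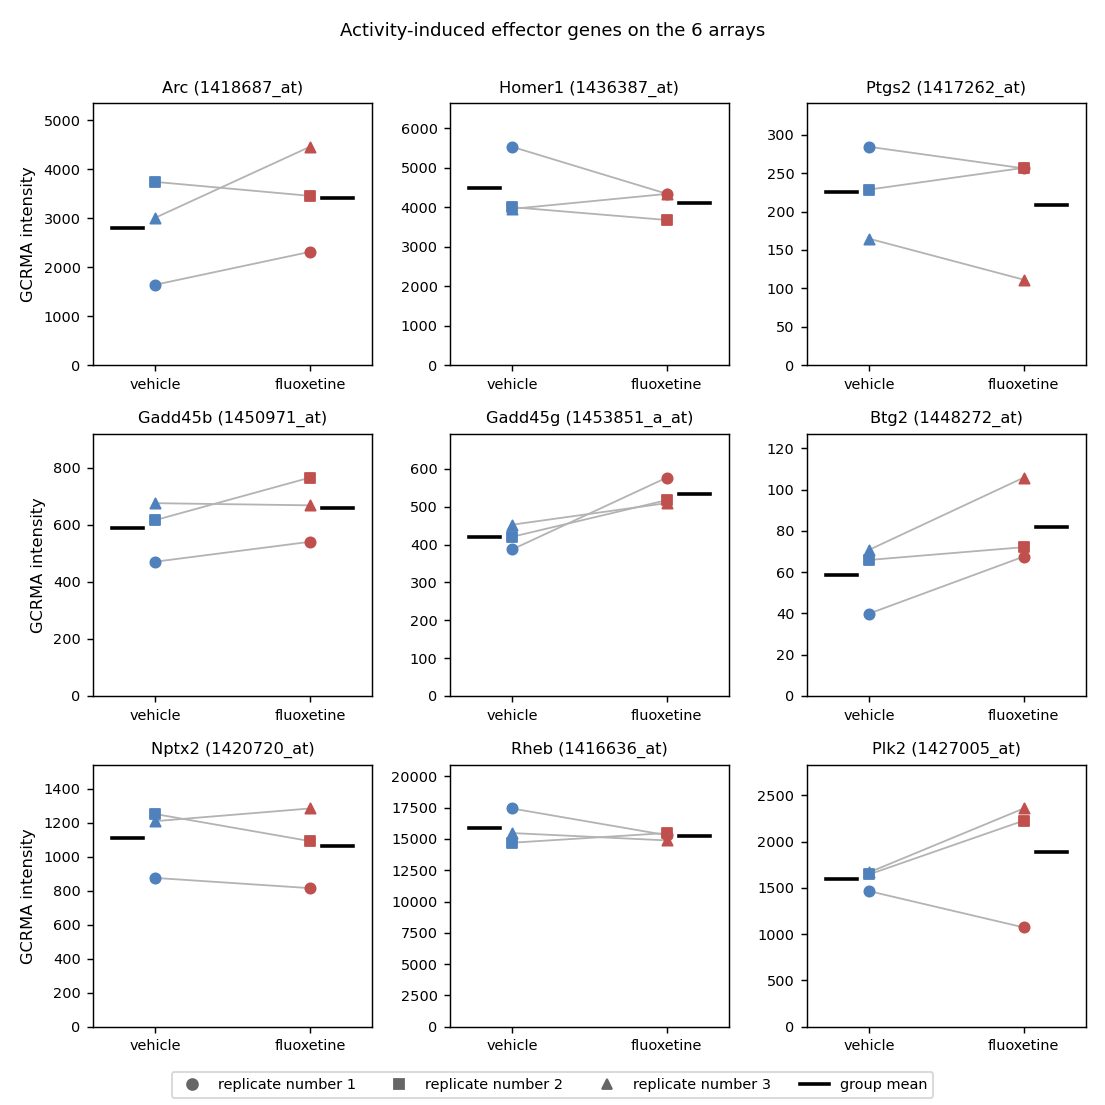
GCRMA intensity (linear axis from 0) of the 9 genes, probe set of highest mean, on the vehicle-titled (blue) and fluoxetine-titled (red) arrays. Symbols mark the replicate number, grey lines join arrays of the same number, and black bars are group means of 3 arrays. Gadd45g is the gene whose groups do not overlap, and the array numbered 1 is the lowest of each group for Arc, Gadd45b, Btg2, Nptx2 and Plk2.

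Gadd45g and Gadd45b encode small stress-inducible proteins that bind the kinase Map3k4 and have been linked to DNA demethylation at activity-regulated genes. The single probe set of Gadd45g (1453851_a_at) had intensities of 577, 517 and 509 on fluoxetine-titled arrays 1, 2 and 3 and of 387, 420 and 452 on vehicle-titled arrays 1, 2 and 3. All 3 fluoxetine-titled values were the higher ones, and the groups did not overlap. The means were 534.5 ± 36.8 and 419.8 ± 32.7 (SD, n = 3 each), a log2 difference of 0.35 ± 0.13 (SE) with a 95% interval from 0.042 to 0.66 (limma, unadjusted p = 0.0312, adjusted p = 1.00). The difference was 0.58 in pair 1, 0.30 in pair 2 and 0.17 in pair 3, and an exact two-sided permutation test over the arrays gave p = 0.1, the smallest that 3 against 3 allows.

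Groups that did not overlap were thus found for 1 of the 9 genes in the higher direction and for 0 in the lower one, against 1.63% and 1.98% of all genes. Without fluoxetine-titled array 1 the first count was 3, against 6.80% of all genes, and without vehicle-titled array 3 it was 2, against 3.80%. Without both arrays numbered 1 it was 3, against 12.5%, and without both numbered 3 it was 2, against 7.21%. Without both arrays numbered 2, 1 gene was apart in the lower direction, against 7.34% of all genes. With fewer arrays non-overlap is reached by more genes, as these shares show.

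Gadd45b had 3 probe sets. The one of highest mean (1450971_at) had 540, 765 and 668 on the fluoxetine-titled arrays and 470, 616 and 675 on the vehicle-titled ones, which overlapped, and a log2 difference of 0.17 ± 0.20. In both groups the array numbered 1 was the lowest. The second (1449773_s_at) had 630, 467 and 486 against 518, 506 and 459, a difference of 0.084 ± 0.16, and here fluoxetine-titled array 1 was the highest. The suffix _s_at marks a set whose probes can match transcripts of more than one gene, and the log2 values of these probe sets had r = -0.645 over the 6 arrays. The third (1420197_at) stayed below an intensity of 50, at 22.4 to 40.0.

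Btg2 encodes an antiproliferative protein that brings the CCR4-NOT deadenylase to messenger RNAs. Its brighter probe set (1448272_at) had 67.5, 72.1 and 105.8 on the fluoxetine-titled arrays and 39.9, 65.9 and 70.8 on the vehicle-titled ones. Each fluoxetine-titled array lay above the vehicle-titled array of its number, by 0.76, 0.13 and 0.58 on the log2 scale, but fluoxetine-titled array 1 was below vehicle-titled array 3. The means of 81.8 ± 20.9 and 58.8 ± 16.6 gave a log2 difference of 0.49 ± 0.27 with an interval from -0.15 to 1.13 (limma, adjusted p = 1.00). With the replicate block its standard error was 0.14, and the unadjusted p was 0.0117 (adjusted p = 0.993). These intensities lie near the filter of 50, and that of vehicle-titled array 1, 39.9, lies below it. With values under 50 set to 50 the difference without the block was 0.38, and with 16 added to each intensity it was 0.39. The second probe set (1416250_at) had 46.7, 68.2 and 59.6 against 43.8, 55.8 and 56.9, with a difference of 0.15 ± 0.19 that was positive in every pair.

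Gadd45g and Btg2 made 2 of 9 genes that were higher in all 3 pairs, against 10.9% of all genes, and 0 of 9 were lower in all 3, against 13.1%. With any 1 pair left out, 3 of 9 were higher in both remaining pairs, against 21.6% to 24.6% of all genes. Without the arrays numbered 2, and likewise without those numbered 3, 2 of 9 were lower in both remaining pairs, against 21.6% and 27.6% of all genes. Among the 17 probe sets kept, 4 were higher in every pair: that of Gadd45g, both of Btg2 and the dimmer one of Ptgs2. The brighter probe set of Ptgs2 had a negative mean difference. The 2 that were lower in every pair were both probe sets of Homer1. The same share over all kept probe sets was not counted, and the shares above are of genes.

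The upstream sequences of these growth-arrest genes and of Plk2 are shown because Gadd45g and Btg2 were the members that were higher in every pair, and Gadd45b and Plk2 carry the same motifs without that pattern. RefSeq promoters (GRCm38.p6, 250 bases before to 50 after the start of the gene) were found for 7 of the 9 genes, with 2 starts for Homer1. None was found for Arc and Nptx2. The 250 bases before the start are printed on the strand of the gene, with the motif in capitals. In Gadd45g (chr13:51846425-51846674, plus strand) and Gadd45b (chr10:80929841-80930090, plus strand) the capitals mark a TATA motif, TATAAA. In Btg2 (chr1:134079156-134079405, minus strand) and Plk2 (chr13:110394794-110395043, plus strand) they mark a whole cAMP response element (CRE), TGACGTCA, the site known to be bound by CREB.
Gadd45g: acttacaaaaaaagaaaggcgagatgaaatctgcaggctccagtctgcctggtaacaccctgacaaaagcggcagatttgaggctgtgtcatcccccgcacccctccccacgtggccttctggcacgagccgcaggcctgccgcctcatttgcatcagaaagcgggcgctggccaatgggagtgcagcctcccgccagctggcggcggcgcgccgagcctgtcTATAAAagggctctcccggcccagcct
Gadd45b: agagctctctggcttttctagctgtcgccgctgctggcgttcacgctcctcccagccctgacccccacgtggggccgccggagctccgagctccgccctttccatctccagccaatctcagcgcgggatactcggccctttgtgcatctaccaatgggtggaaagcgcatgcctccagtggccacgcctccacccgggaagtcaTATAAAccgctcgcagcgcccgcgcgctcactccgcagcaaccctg
Btg2: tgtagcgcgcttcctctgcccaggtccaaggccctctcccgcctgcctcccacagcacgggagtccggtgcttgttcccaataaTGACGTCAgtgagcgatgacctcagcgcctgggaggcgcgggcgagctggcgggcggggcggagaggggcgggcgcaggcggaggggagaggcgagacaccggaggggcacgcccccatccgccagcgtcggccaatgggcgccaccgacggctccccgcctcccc
Plk2: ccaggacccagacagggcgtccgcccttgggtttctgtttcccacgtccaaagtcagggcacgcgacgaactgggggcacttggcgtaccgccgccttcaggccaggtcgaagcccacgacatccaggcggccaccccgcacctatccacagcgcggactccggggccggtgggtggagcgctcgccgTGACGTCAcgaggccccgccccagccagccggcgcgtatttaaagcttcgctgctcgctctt

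The TATA motif began 27 bases before the start in Gadd45g and 46 bases before it in Gadd45b, and no other of the 8 promoters held it, against 13.6% of 32851 promoters of the same length in the table. The whole CRE began 166 bases before the start in Btg2 and 62 bases before it in Plk2, and was in 2 of the 8 promoters, against 1.79% of all. Its core TGACG, which lies inside each whole CRE on both strands, was in the promoters of 5 genes, Homer1, Ptgs2, Btg2, Rheb and Plk2, against 20.8% of all promoters. Homer1 held 3 copies of the core at its upstream start and none at the other start. The member promoters held 59.3% (Ptgs2) to 72.0% (Btg2) G and C, except the other Homer1 start with 44.7%. The median over all promoters was 52.7%, and the part of this base composition in the motif counts was not tested. The AP-1 motif TGANTCA and the CArG box bound by SRF were in none of the 8 promoters, against 7.81% and 1.63% of all. Arc and Nptx2 were not searched. Both strands were searched. These are matches of letters in short windows, and a window without a match says nothing about the factor.

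Arc encodes a postsynaptic protein that promotes the removal of AMPA-type glutamate receptors from the membrane. Its probe set (1418687_at) had intensities of 2312, 3456 and 4459 on the fluoxetine-titled arrays and 1640, 3742 and 3008 on the vehicle-titled ones. The arrays numbered 1 were the lowest of each group, and the groups overlapped. The log2 difference of 0.32 ± 0.35 had an interval from -0.52 to 1.15 (limma, adjusted p = 1.00), and it was 0.50, -0.11 and 0.57 in pairs 1, 2 and 3. With the replicate block its standard error was 0.15 and its interval ran from -0.053 to 0.69 (limma, unadjusted p = 0.0817, adjusted p = 0.993). The SD of log2 Arc within the groups was 0.55, against a median of 0.21 over all genes.

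Homer1 encodes a scaffold that ties metabotropic glutamate receptors to Shank and to calcium stores, and neuronal activity induces a short form, Homer1a, that uncouples the scaffold. Of its 6 probe sets, 5 passed the filter, and they fell into sets with opposite patterns over the arrays. Probe set 1436387_at had 4342, 3677 and 4339 on the fluoxetine-titled arrays and 5534, 4003 and 3959 on the vehicle-titled ones, a log2 difference of -0.11 ± 0.17. Probe set 1437363_at had 4034, 2828 and 3318 against 3936, 3027 and 3530, a difference of -0.051 ± 0.18. Probe set 1439662_at had 1519, 1018 and 1160 against 1467, 1321 and 1301, a difference of -0.16 ± 0.18. For each of these 3 the highest array was one of those numbered 1.

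The other Homer1 probe sets were lowest on the arrays numbered 1. Probe set 1425710_a_at had 94.0, 179.6 and 202.6 on the fluoxetine-titled arrays and 111.6, 192.6 and 294.8 on the vehicle-titled ones, and 1421768_a_at had 77.4, 171.6 and 190.2 against 87.6, 178.7 and 280.2. Both were lower in the fluoxetine-titled array of every pair, with log2 differences of -0.30 ± 0.41 and -0.27 ± 0.49 and overlapping groups. With the replicate block, 1425710_a_at had a standard error of 0.12, an interval from -0.59 to -0.0064 and an unadjusted p of 0.0464 (limma, adjusted p = 0.993), and 1421768_a_at an unadjusted p of 0.0801 (adjusted p = 0.993). The suffix _a_at marks a set whose probes match alternative transcripts of the same gene. Over the 6 arrays the log2 values of these 2 had r = 0.996 with each other, those of the first 3 had r from 0.641 to 0.860, and those across the sets had r from -0.645 to -0.561. Which Homer1 isoform each probe set reads is not given by the platform annotation. The remaining one, 1425671_at, stayed between 8.47 and 13.6.

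**Figure D2:**
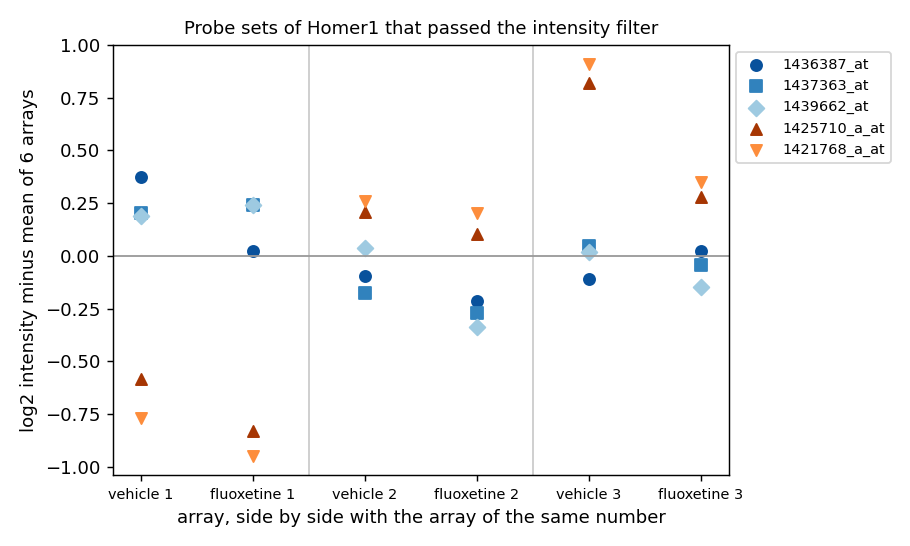
Log2 intensity of the 5 Homer1 probe sets above the filter, each minus its mean over the 6 arrays, with arrays of the same number side by side. The 3 probe sets in blue are at or above their mean on the arrays numbered 1, where the 2 in orange are at their lowest, from -0.95 to -0.58.

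Nptx2 encodes a secreted pentraxin that clusters AMPA receptors at excitatory synapses. Its brighter probe set (1420720_at) had 815, 1092 and 1284 on the fluoxetine-titled arrays and 875, 1251 and 1209 on the vehicle-titled ones, a log2 difference of -0.071 ± 0.22. As for Arc, both arrays numbered 1 were the lowest. The dimmer probe set (1449960_at) ran the other way over the arrays, with 85.7, 60.1 and 57.5 against 78.7, 54.3 and 71.5, r = -0.863 with the brighter one and a difference of -0.015 ± 0.21.

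Plk2 encodes a kinase that is induced by firing and weakens synapses by acting on the spine protein Sipa1l1. Its main probe set (1427005_at) had 1074, 2228 and 2360 on the fluoxetine-titled arrays and 1466, 1646 and 1668 on the vehicle-titled ones. Fluoxetine-titled array 1 was the lowest of all 6 and the other 2 fluoxetine-titled arrays were the highest, so the pair differences of -0.45, 0.44 and 0.50 had opposite signs and the mean difference was 0.16 ± 0.30. Without fluoxetine-titled array 1 it was 0.53 (limma, adjusted p = 1.00). The second probe set (1443780_at) lay between 2.81 and 2.84 on every array, near the lowest values of the table.

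Rheb encodes the small GTPase that switches on the mTOR complex and so protein synthesis. Its probe set (1416636_at) had 15300, 15469 and 14880 on the fluoxetine-titled arrays and 17431, 14696 and 15468 on the vehicle-titled ones, a log2 difference of -0.057 ± 0.13 with an interval from -0.35 to 0.24. Among the brightest probe sets of the 9 genes it varied least, with its highest array 1.19 times its lowest.

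Ptgs2 encodes the inducible cyclooxygenase of prostaglandin synthesis. Probe set 1417262_at had 256, 257 and 111 on the fluoxetine-titled arrays and 284, 229 and 165 on the vehicle-titled ones, and 1417263_at had 121, 125 and 60.8 against 98.3, 115 and 52.0. In both, the arrays numbered 3 were the lowest. The treatment differences had opposite signs, -0.18 ± 0.36 for the first and 0.22 ± 0.38 for the second, which was positive in every pair (0.30, 0.12 and 0.23). Neither interval, from -1.04 to 0.67 and from -0.68 to 1.11, left out 0. With the replicate block the standard errors were 0.15 and 0.10. The blocked intervals, from -0.55 to 0.18 and from -0.028 to 0.46, held 0 too.

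The 95% interval lay within a 2-fold difference in either direction for 6 of the 9 genes, against 94.0% of all 19073 probe sets. With the replicate block it did so for all 9, and for 99.5% of all probe sets. The intervals that ran past 2-fold without the block were those of Arc, Btg2 and Ptgs2.

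**Figure D3:**
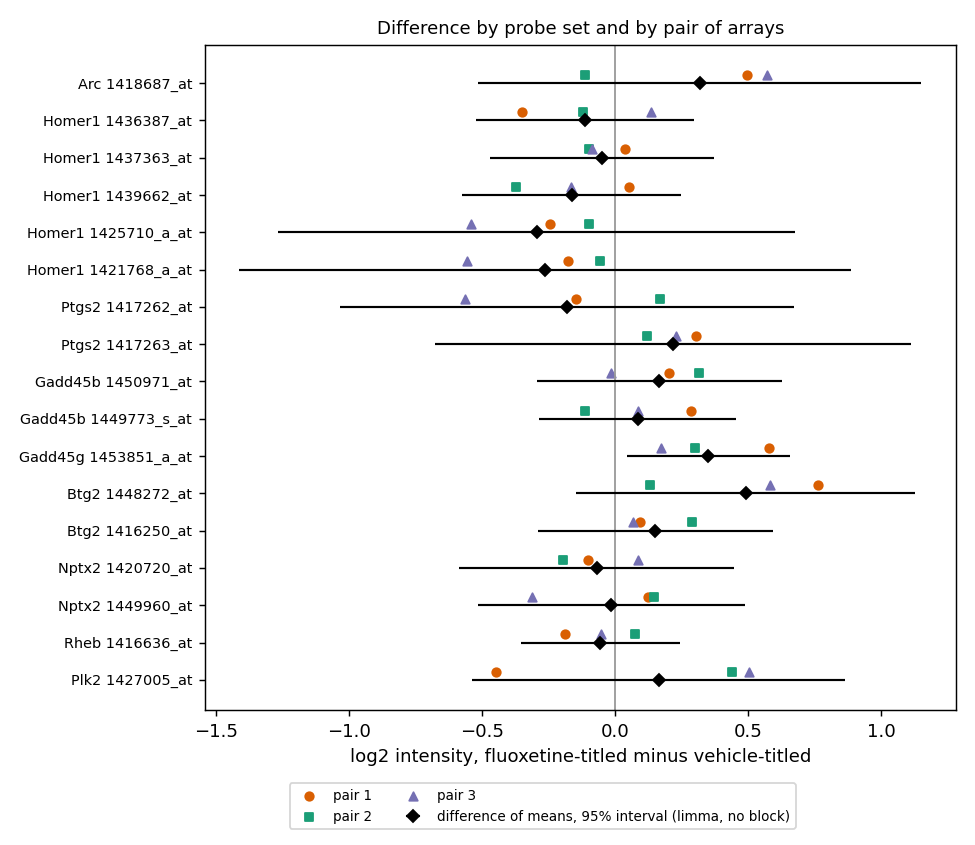
Log2 difference, fluoxetine-titled minus vehicle-titled, of the 17 probe sets above the filter. Black diamonds are differences of means with 95% intervals from limma without the block (3 arrays per group) and coloured symbols are the differences in single pairs. The interval of Gadd45g, from 0.042 to 0.66, is the one that leaves out 0.

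How much of the spread over the arrays lay between replicate numbers was compared after the values were seen. The highest array was at least 2 times the lowest for 4 of the 9 genes, Arc, Ptgs2, Btg2 and Plk2, against 10.5% of all genes. The replicate number took 78.7% of the sum of squares of log2 Arc and the treatment 11.0%. For 7 of the 9 genes the replicate number took more than 50%, up to 92.7% for Nptx2. The median share over all genes was above 50% too, at 70.2%. The replicate number has 2 of the 5 degrees of freedom and the treatment 1, so that independent arrays with no effect of either would give mean shares of 40% and 20%. The shares given here over all genes and over the 9 genes are medians, so they cannot be set directly against those means. Per degree of freedom the replicate number took more than the treatment for 7 of the 9 genes, against 81.4% of all genes, and less for Gadd45g and Btg2 (54.0% and 35.6% before that division). Over all 10830 genes its median share was 70.2% and that of the treatment 5.35%, and over the 9 genes the medians were 62.8% and 11.0%. Gadd45g was the reverse, with 0.776% for the replicate number and 80.4% for the treatment. In the limma F test of the replicate number, 2 of the 9 genes passed an adjusted p of 0.05, Arc (0.0348) and Ptgs2 (0.0315), against 14.8% of all probe sets. The Homer1 probe sets 1425710_a_at and 1421768_a_at passed too (adjusted p = 0.0106 and 0.00788 in limma), as did the second one of Ptgs2 (0.00858).

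**Figure D4:**
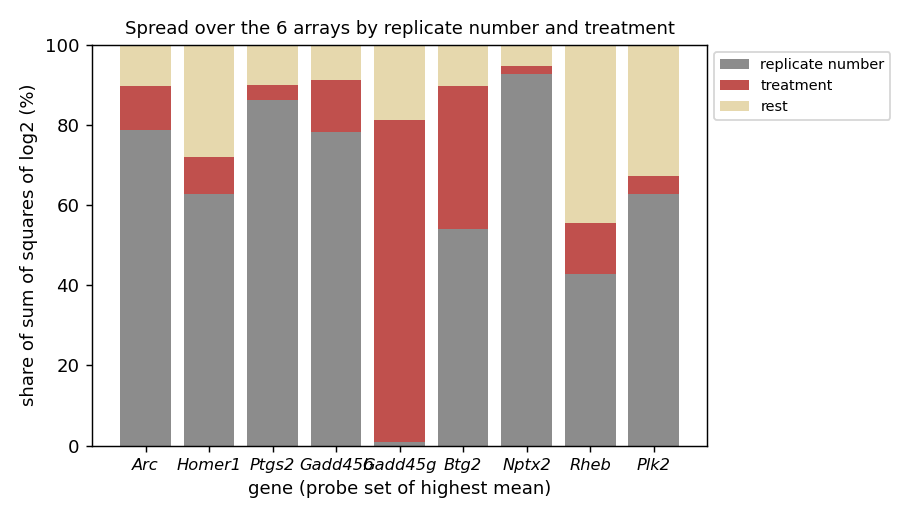
Share of the sum of squares of log2 intensity over the 6 arrays that lies between replicate numbers (grey), between treatments (red) and in the rest (beige), for the probe set of highest mean of each gene. Gadd45g has 80.4% between treatments, and Nptx2 92.7% between replicate numbers.

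Taking the probe set of highest mean for each gene, the 9 genes did not vary together. Of their 36 pairings, 16 had a positive correlation of log2 intensity over the 6 arrays, and r ran from -0.894 (Homer1 and Gadd45b) to 0.885 (Arc and Btg2). By these probe sets Arc, Gadd45b, Btg2, Nptx2 and Plk2 were positively related to one another (r from 0.541 to 0.885), and Homer1, Ptgs2 and Rheb were negatively related to each of those 5. These signs rest on the probe set: among the 30 pairings of genes with more than 1 kept probe set between them, 20 held both positive and negative values of r. Arc had r = -0.742 with Homer1 1436387_at but 0.726 with 1421768_a_at, and r = 0.862 and -0.848 with the brighter and the dimmer probe set of Nptx2. Homer1 1436387_at had r = 0.350 with the second probe set of Gadd45b in place of -0.894. These values describe 6 arrays that share amplification and normalization and, by number, whatever the pairs share.

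Each member, read by its probe set of highest mean, was set against 41 other activity-induced genes. Those most like Arc over the 6 arrays were Fosb (r = 0.966) and Per1 (r = 0.963). Gadd45g was most like Junb (r = 0.919) and Dusp1 (r = 0.870), Gadd45b most like Npas4 (r = 0.929) and Per1 (r = 0.888), and Btg2 most like Jun (r = 0.906) and Npas4 (r = 0.815). Ptgs2 was most like Inhba (r = 0.986) and Bdnf (r = 0.946), Nptx2 like Trib1 (r = 0.961) and Per1 (r = 0.914), and Plk2 like Trib1 (r = 0.864) and Dusp6 (r = 0.858). Homer1 (Nrn1 0.778, Egr3 0.767) and Rheb (Egr3 0.650, Crem 0.614) had lower values of r. These are the 2 highest of 41 values for each gene, and the median r with the list was 0.334 for Arc, 0.337 for Btg2, 0.186 for Gadd45g, -0.151 for Ptgs2 and -0.179 for Homer1. Over all genes the median r was -0.106 for Arc, -0.0973 for Btg2, -0.0176 for Gadd45g, 0.0835 for Ptgs2 and 0.105 for Homer1. Other probe sets of the members were not set against the list, and that of Nptx2 had r = -0.863 with the one used. The intensities of Junb were 611, 527 and 533 against 442, 510 and 517, apart between the groups as for Gadd45g, and those of Dusp1, a MAP kinase phosphatase, were 6162, 5019 and 4909 against 4389, 4682 and 4453.

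Those 41 genes, of 45 listed, had 27 positive and 14 negative differences (65.9% positive, against 47.8% of all genes), with 0.078 as the median overall and 0.041, 0.018 and 0.081 in pairs 1, 2 and 3. None passed the adjusted p in either direction. Groups were apart for 4 higher genes, Fosl2, Junb, Egr2 and Dusp1, and 1 lower one, Rasd1, among the 41, where 1.63% and 1.98% of all genes were apart. The activity-dependent transcription factor gene Npas4 had the largest positive difference (0.56 ± 0.28), with 197, 305 and 254 against 117, 174 and 235. Jund, an AP-1 subunit, had the most negative one (-0.29 ± 0.32), with 2307 on fluoxetine-titled array 1 and 4683 to 5275 on the others. The 9 effector genes had 5 positive and 4 negative differences with a median of 0.16, beside -0.0068 over all genes, and medians of -0.10, 0.13 and 0.13 in pairs 1, 2 and 3.

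Among paralogs of the members, 9 of 14 passed the filter, 7 with a positive and 2 with a negative difference and none past the adjusted p. Btg1, the close relative of Btg2, had 1349, 879 and 1031 on the fluoxetine-titled arrays and 1157, 703 and 700 on the vehicle-titled ones, a difference of 0.37 ± 0.25 that was positive in every pair, with overlapping groups. Tob1, of the same antiproliferative family, had 0.25 ± 0.16 and was likewise positive in every pair, and Tob2 had 0.26 ± 0.23. Gadd45a had 49.9, 118.0 and 91.7 against 52.9, 73.1 and 76.7, a difference of 0.29 ± 0.32. Nptx1, a pentraxin that assembles with Nptx2, had 0.090 ± 0.22 and Homer2 0.047 ± 0.23. Plk3 had 0.052 ± 0.12, Plk4 -0.11 ± 0.27 and the Rheb relative Rhebl1 -0.027 ± 0.19. Homer3 and Plk1 stayed below the filter, with at most 30.6 and 24.1, and Ptgs1, Btg3 and Nptxr were not analysed here.

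Partners of the members gave 0 genes past the adjusted p in each list (limma). Of 13 measured partners of Homer and Arc, 10 had a positive difference (median 0.071), from Gria4, an AMPA receptor subunit (-0.25 ± 0.31), to Dlg4, the scaffold PSD-95 (0.24 ± 0.20). Of 11 genes of Rheb and mTOR signalling, 3 were positive (median -0.068). They ran from Rictor (-0.17 ± 0.18) to Tsc1 (0.044 ± 0.12), whose product with Tsc2 holds Rheb inactive. Of 5 genes of prostaglandin synthesis and reception, 4 were positive (median 0.086), from the synthase gene Ptges2 (-0.035 ± 0.12) to the receptor gene Ptger3 (0.12 ± 0.30). Of 5 Plk2 substrates and Ras or Rap regulators, 2 were positive (median -0.028), from Rasgrf1 (-0.17 ± 0.18) to Rapgef2 (0.054 ± 0.13), and Sipa1l1 itself, named here as the Plk2 target, had -0.028 ± 0.19. Of 7 partners of the Gadd45 and Btg2 proteins, 3 were positive (median -0.015), from Pcna (-0.082 ± 0.24) to the methyltransferase gene Prmt1 (0.20 ± 0.33). Map3k4, the kinase the Gadd45 proteins bind, had 0.17 ± 0.21.

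**Figure D5:**
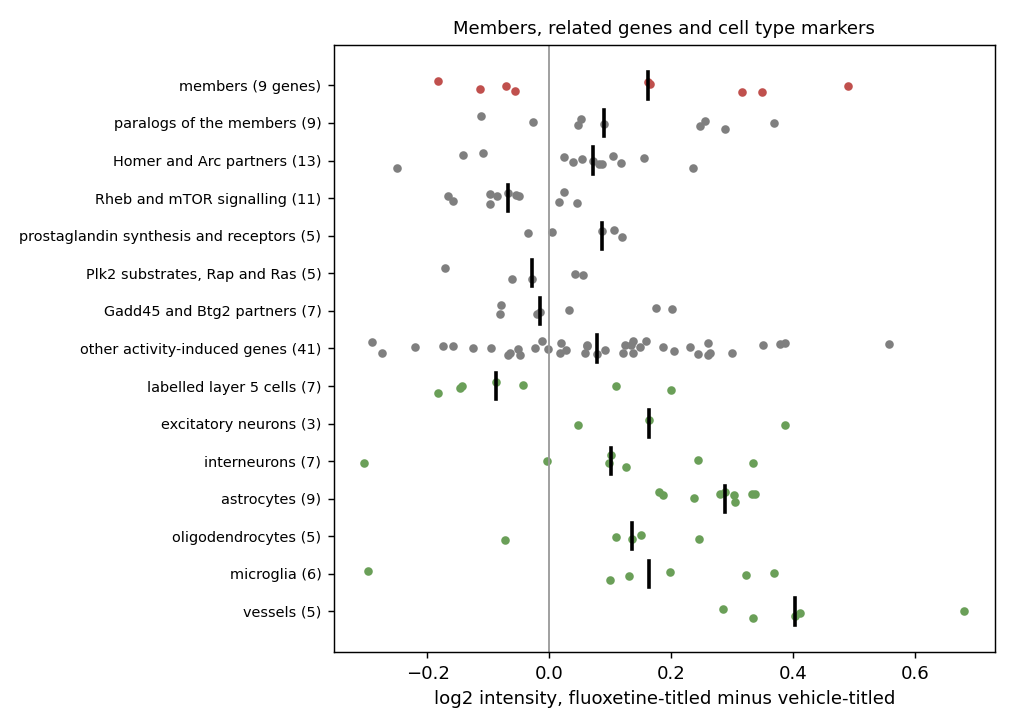
Log2 difference, fluoxetine-titled minus vehicle-titled, of each measured gene (dots, 1 probe set per gene, vertical scatter random) for the 9 effector genes (red), related genes (grey) and cell type markers (green), with list medians as black bars. The medians are 0.16 for the effector genes, 0.078 for other activity-induced genes and 0.40 for vessel markers.

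Markers of the labelled cells and of other cells differed between the arrays. The summed intensity of the 7 layer 5 markers was the lower one on each fluoxetine-titled array of the 3 pairs, with 48358, 37657 and 41038 against 52233, 40515 and 47262, and 5 of the 7 had a negative difference. The brightest, Pcp4, weighs most in that sum, and the pair medians of the log2 differences were 0.13, -0.12 and -0.22. Of 7 vessel markers 5 were measured. Their summed intensity was 1736 to 1995 on the fluoxetine-titled arrays and 1230 to 1605 on the vehicle-titled ones, apart between the groups as for Gadd45g. Of the 5, 2 had groups apart and higher by themselves, against 1.63% of all genes, and 4 were higher in every pair, against 10.9%. Pecam1 and Flt1 stayed below the filter, with lower fluoxetine-titled means (6.90 against 7.89 and 39.05 against 42.86). The 9 astrocyte markers summed to 11370 to 13822 against 6502 to 12865, the lowest on vehicle-titled array 3, with pair medians of -0.016, -0.011 and 0.84. The 5 measured oligodendrocyte markers (18856 to 33696 over all arrays) and 6 microglia markers (1218 to 3137) were also lowest on that array. In pair 3 the difference of Gadd45g was at its smallest, 0.17, and without vehicle-titled array 3 its mean difference was 0.40 on the log2 scale. The part of any of these cells in the differences of the effector genes was not tested.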

How the data were processed

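The values deposited by the authors are intensities on a linear scale, 1 for each probe set on each array, made with GCRMA, a background correction and normalization for Affymetrix arrays, per the submitters' processing notes; no version or setting is given there. RNA was amplified from 15 ng in 2 cycles, per the labels' protocols. Of 45101 probe sets, 64 controls were left out, and 19073 with a mean of at least 50 in at least 1 group were kept. Log2 intensities were fitted with limma 3.58.1 (R 4.3.3, lmFit and eBayes), with two-sided p-values adjusted by Benjamini-Hochberg over the kept probe sets, and the code was tested on simulated data.

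Gene names came from the platform annotation. Arrays were paired by replicate number. Deviations from group means had r = 0.738, 0.602 and 0.504 for same-numbered arrays, and from -0.592 to 0.259 for arrays of different number. Within a group these deviations cancel out, so the values of r are not independent of one another. The fit with the replicate block is given where a count changes and for Arc and Ptgs2. The members and gene lists were chosen with earlier results of these data known. Named were every member and paralog, the extremes of each list and the 2 genes most like each member. Sipa1l1, Map3k4, Fosl2, Egr2, Rasd1, Cnp, Gad1, Gja1 and Ctss were named after their values were seen. The published list of probe sets that the design text recommends was not used here. Intensities of different probe sets share no scale, so levels of genes were not ranked, and the bright probe sets weigh most in the summed marker intensities.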

Additional observations from a re-analysis of the deposited data

How the results depend on the processing

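No alternative gave a probe set past an adjusted p of 0.05 in limma: not the replicate block, quantile normalization, median centring, other filters, a floor of 50, a pseudocount of 16, a mean-variance trend, or leaving out any array or pair. The smallest adjusted p of any member was 0.993. The blocked fit, which pairs the arrays, changed no call at the adjusted threshold. The signs of all 9 mean differences held under every setting that kept all arrays and the same probe set. Another probe set turned the sign for Ptgs2 (0.22), for Gadd45b (-0.29, below the filter) and for Plk2 (-0.0052, below the filter); the cause was not tested. With 1 array or 1 pair left out the log2 difference ran from -0.028 to 0.57 for Arc, from -0.24 to 0.045 for Homer1, from -0.39 to 0.22 for Ptgs2, from -0.23 to 0.11 for Nptx2, from -0.12 to 0.013 for Rheb and from -0.041 to 0.53 for Plk2. It kept its sign for Gadd45b (0.013 to 0.30), Gadd45g (0.24 to 0.44) and Btg2 (0.23 to 0.67). With arrays left out, the members with groups apart numbered 1 to 3 (higher) and 0 to 1 (lower), those higher in all pairs 3 under each such setting, and those lower in all pairs 0 to 2. For all genes the shares apart were then 3.75% to 12.5% (higher) and 4.03% to 15.9% (lower), and the shares of 1 sign in all pairs 21.6% to 24.6% and 21.6% to 30.4%, since fewer arrays are compared. With no filter the share apart and lower was 4.86%; the cause was not tested. Without the replicate block the median standard error was 0.17 over all genes and 0.22 over the 9. With the block it was 0.11 over all genes and 0.12 over the 9.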
